A study of Mus musculus with 2 samples.

Results

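In the adult mouse spinal cord, 72 of 4215 Olig2 peaks had a solute carrier (Slc) gene as their nearest gene, at 60 genes. They were taken as the peaks whose nearest gene is protein-coding and has a name that starts with Slc and a digit, which leaves out the Slco genes (2 peaks), and they stand among 3736 peaks nearest to protein-coding genes. Solute carrier genes encode the membrane proteins that move amino acids, transmitters, sugars, ions, metals and metabolites across the plasma membrane and across the membranes of mitochondria and other organelles. A family number groups carriers of related sequence. Thus Slc1 and Slc6 hold the plasma membrane uptake systems for glutamate, GABA, glycine and taurine, while Slc25 holds mostly carriers of the inner mitochondrial membrane. Glial cells depend on them, since astrocytes clear glutamate and GABA from the extracellular space through Slc1 and Slc6 carriers, and oligodendrocytes (OLs) need metabolites exported from mitochondria to make the lipids of myelin.

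Olig2-bound chromatin was immunoprecipitated from the whole spinal cord of male C57BL/6 mice, 6 weeks of age, with an Olig2 antibody and with several cords combined in each IP; the labels name no transgene. An Input Control was sequenced from the same tissue and is not analysed here. Independent experiments were aggregated into 1 list of 4215 peaks, so there are no replicates, and the list gives no read counts. Because the tissue was whole cord, peaks cannot be assigned to a cell type, and gene expression is not part of the list. All 60 names were current RefSeq symbols, and for 70 of the 72 peaks the nearest TSS of the curated RefSeq transcripts belonged to the same gene, as it did for 93.0% of all protein-coding peaks. The exceptions were the peaks of Slc13a3, an importer of dicarboxylates, and Slc23a3, a member of the ascorbate transporter family, which lay closer to the starts of Gm14437 and Nhej1.

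For each peak the list gives a 51 bp position, a peak score from the peak caller on a scale that is not named, the annotation, the signed distance from the TSS (negative upstream) and the hits of sequence motifs. Distances are given as in the list. For 62 of the 72 peaks they matched a curated RefSeq TSS of the gene within 1 bp. The largest differences were 1677 bp (Slc4a2), 428 bp (Slc16a7) and 284 bp (Slc26a1). The motif labelled Motif41 is the most frequent. Its words usually contain an E-box (CANNTG), the sequence bound by bHLH proteins such as Olig2, but a hit need not hold one. Sequences of peaks were read from the reference genome (GRCm38.p6, the build of the list) and are shown here on the plus strand, 5′ to 3′, with the words of the deposited Motif41 hits in capitals. The first set is shown because it holds the strongest peaks that carry an E-box, all of them over 10 kb from a TSS, with the second peak of Slc1a3 added for comparison.
Slc6a11 (chr6:114094480-114094530): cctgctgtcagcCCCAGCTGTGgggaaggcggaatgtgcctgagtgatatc
Slc24a2 (chr4:87096325-87096375): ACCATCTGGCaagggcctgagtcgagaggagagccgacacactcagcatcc
Slc24a5 (chr2:124930786-124930836): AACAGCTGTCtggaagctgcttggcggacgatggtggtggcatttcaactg
Slc1a3 (chr15:8738338-8738388): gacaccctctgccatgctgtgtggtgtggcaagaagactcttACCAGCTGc
Slc1a3 (chr15:8682282-8682332): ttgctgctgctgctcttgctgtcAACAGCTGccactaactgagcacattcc

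The second set shows peaks in promoters with Motif41, followed by the strongest peak of the Slc25 family. The words of Slc25a17 and Slc25a1 contain CAGCCG in place of an E-box, and no CANNTG occurs in the 51 bp of either peak.
Slc25a10 (chr11:120491494-120491544): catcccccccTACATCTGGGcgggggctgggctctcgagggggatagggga
Slc25a18 (chr6:120773401-120773451): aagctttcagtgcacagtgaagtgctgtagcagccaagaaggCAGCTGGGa
Slc5a11 (chr7:123214445-123214495): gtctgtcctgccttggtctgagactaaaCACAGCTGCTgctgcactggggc
Slc25a17 (chr15:81360858-81360908): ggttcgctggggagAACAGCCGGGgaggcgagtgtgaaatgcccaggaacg
Slc25a1 (chr16:17921988-17922038): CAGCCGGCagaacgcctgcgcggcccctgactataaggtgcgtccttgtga

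The third set shows promoter peaks without Motif41, in which capitals mark the words of the other deposited motifs. Slc25a38 and Slc25a42 carry Motif22, whose words in these peaks hold CCGGAAG on one strand, and Slc2a8 carries Motif54, whose words resemble CCAAT, together with Motif14.
Slc25a38 (chr9:120110323-120110373): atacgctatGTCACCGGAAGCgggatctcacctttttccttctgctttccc
Slc25a42 (chr8:70212529-70212579): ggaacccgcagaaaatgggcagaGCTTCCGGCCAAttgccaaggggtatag
Slc2a8 (chr2:32982131-32982181): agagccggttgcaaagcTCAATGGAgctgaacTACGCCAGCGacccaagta

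Olig2 peaks stood nearest to 60 of the 375 protein-coding genes with such a name in the RefSeq annotation (16.0%, 95% confidence interval 12.4 to 20.1%). The same was true of 14.1% of all protein-coding genes, a level within this interval. Intervals of shares are exact by the method of Clopper and Pearson, and they express counting error alone. Peaks were counted by the names in the list and by the nearest TSS, and statements here that a gene or family had no peak hold for this assignment. The peaks covered 26 of 51 families, and the other 25 families held 96 genes, including Slc49a4 and Slc66a1, whose peaks stand in the list under the older names Dirc2 and Pqlc2 and were not counted. A single peak was found at 48 genes and a pair of peaks at 12, and no solute carrier gene had more.

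By substrate class, the highest shares of genes with a peak were those of the mitochondrial and transmitter uptake carriers. The Slc25 family, counted whole as mitochondrial carriers although it includes the peroxisomal Slc25a17, had a peak at 14 of 47 genes (29.8%, 95% confidence interval 17.3 to 44.9%). The transmitter uptake families Slc1 and Slc6 had a peak at 8 of 28 (28.6%, 13.2 to 48.7%). Carriers of sugars followed with 6 of 30 genes, sodium, proton and calcium exchangers with 4 of 23, and carriers of choline, vitamins, lipids and peptides with 5 of 29. Nucleotide sugar and nucleoside carriers had peaks at 6 of 35 genes, carriers of chloride, bicarbonate and sulfate at 5 of 31, amino acid carriers at 4 of 36, carriers of phosphate and sugar phosphates at 1 of 9, and carriers of monocarboxylates, bile acids and organic ions at 6 of 55. Carriers of metals had a peak at 1 of 32 genes, and the vesicular transmitter families Slc17, Slc18 and Slc32 at 0 of 14 (95% confidence interval 0 to 23.2%). With peaks assigned instead to genes whose body or 1000 bp of upstream sequence holds them, the metal carriers had a peak at 3 genes, the vesicular families at 1 (Slc18a1), Slc25 at 13 and the transmitter uptake families at 6. The classes were compared by these counts alone and the differences were not tested, since classes were chosen with earlier results of the list known and many of them are small.

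**Figure D1:**
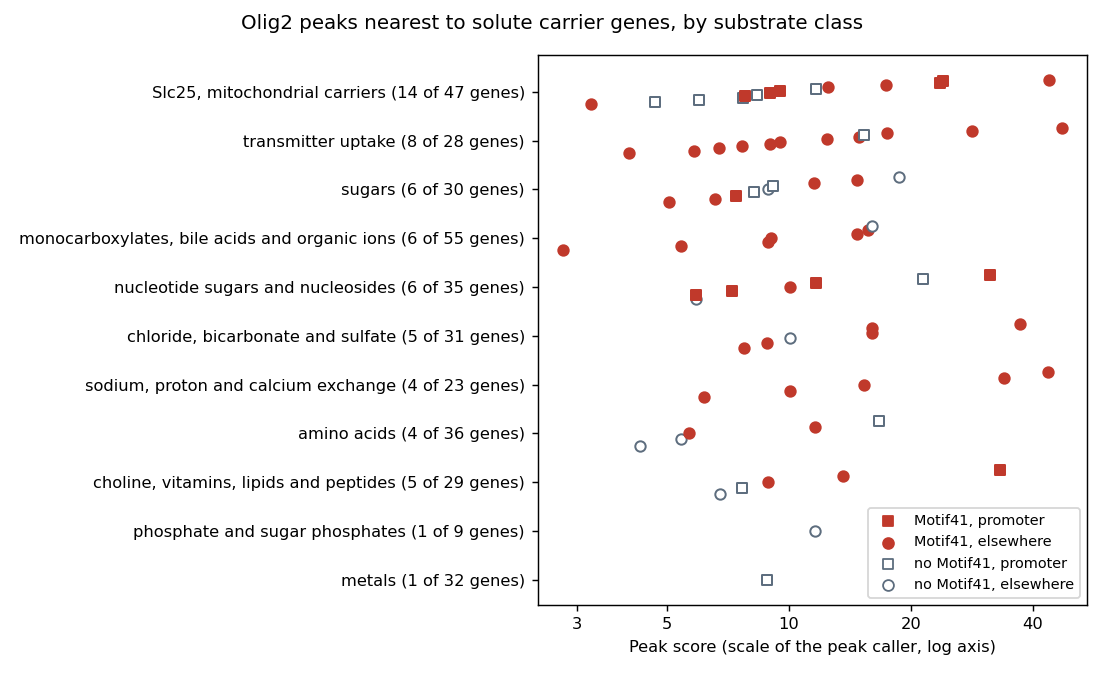
Peak score (log axis) of each of the 72 solute carrier peaks by substrate class, with squares for promoter peaks, circles for peaks elsewhere, and filled symbols for Motif41. Slc25 has most of its peaks in promoters (10 of 14), while 11 of the 12 peaks of the transmitter uptake families lie elsewhere and 11 of the 12 carry Motif41. Of all peaks nearest to protein-coding genes, 40.2% lie in promoters, and 75.9% of those elsewhere carry Motif41.

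Solute carrier peaks were found in introns more often than in promoters. Their median distance from the TSS was 9738.5 bp in either direction, against 3632 bp for all peaks nearest to protein-coding genes, and 36 of 72 (50.0%, 95% confidence interval 38.0 to 62.0%) lay more than 10 kb away, against 40.6%. By annotation, 29 peaks lay in introns (40.3%, against 31.6% of all), 23 in promoters (31.9%, 95% confidence interval 21.4 to 44.0%, against 40.2%) and 13 in intergenic sequence (18.1%, against 22.0%). Of the rest, 3 lay in 3' UTRs, 2 at transcription termination sites, 1 in an exon and 1 in a 5' UTR. Within 1 kb of the TSS lay 27 peaks (37.5%, against 43.9%), and 21 of these were upstream of it (77.8%, against 75.5%). For promoters, introns, the 1 kb window and distances over 10 kb, the share of all peaks fell within the interval of the solute carrier peaks. These differences in position are therefore within counting error. Within 500 bp of the TSS, however, lay 20 of 72 peaks (27.8%, 95% confidence interval 17.9 to 39.6%). The share of all peaks there, 40.4%, lies just above this interval, and the difference was not tested. Without the Slc25 family, 13 of 58 peaks were in promoters (22.4%, 95% confidence interval 12.5 to 35.3%, against 40.2% of all peaks). The share had to fall, because this family had 10 of its 14 peaks in promoters. The 40.2% of all peaks lies above the interval of these 58 peaks, while their value stayed within the interval of the 72. The difference was not tested.

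**Figure D2:**
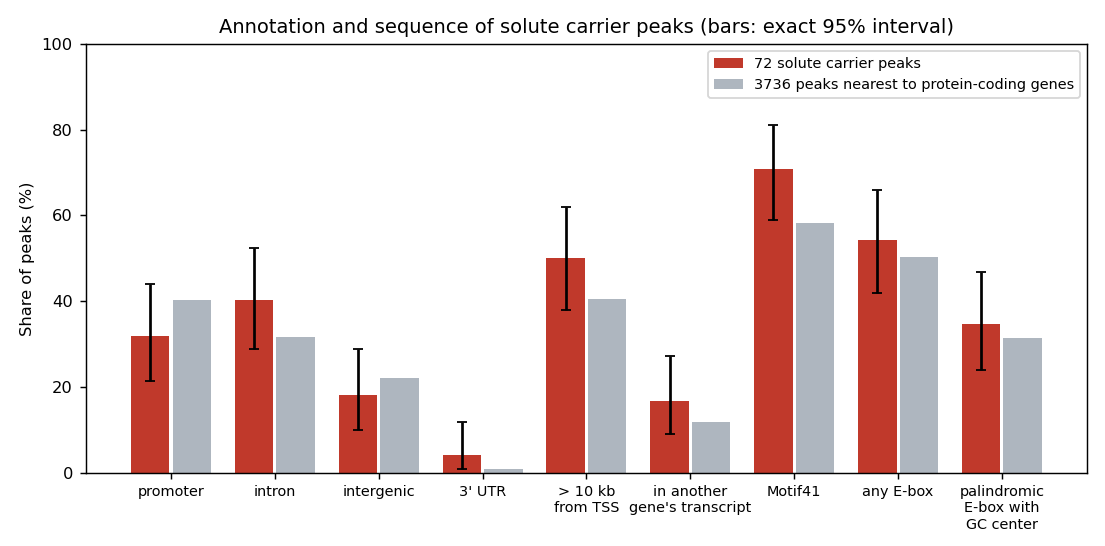
Shares (%) of the 72 solute carrier peaks (red) and of all 3736 peaks nearest to protein-coding genes, which include them (grey), by annotation, distance and sequence, with exact 95% intervals on the red bars. Promoter peaks make up 31.9% against 40.2%, and Motif41 is carried by 70.8% against 58.2%.

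None of the solute carrier peaks was among the 100 strongest of the list, and 11 were among the first 1000. Their median score was 9.53, with quartiles at 7.36 and 15.7 and a range from 2.76 to 47.3. Over all protein-coding peaks the median was 11.6 and the range 2.06 to 195. Solute carrier peaks with Motif41 had a median of 10.0 and those without it 8.82, against 12.8 and 10.3 over all protein-coding peaks. Outside promoters the median was 10.0, and within them 8.99. The order-statistic interval of the median over solute carrier peaks, 8.82 to 11.7, includes the median of all protein-coding peaks, so lower scores were not resolved.

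Motif41 was deposited for 51 of the 72 peaks (70.8%, 95% confidence interval 58.9 to 81.0%), against 58.2% of all protein-coding peaks. The background share lies just below this interval. Split by position, outside promoters 40 of 49 peaks carried it (81.6%, 95% confidence interval 68.0 to 91.2%, against 75.9% of all), and in promoters 11 of 23 (47.8%, 26.8 to 69.4%, against 32.0%). In both places the share of all peaks fell within the interval. An E-box in the sequence was less frequent than the motif. CANNTG occurred in the 51 bp of 39 peaks (54.2%, against 50.2% of all), and the palindrome CAGCTG in 25 (34.7%, against 31.5%). Of the 51 peaks with Motif41, 36 held CANNTG and 15 did not, while 3 of the 21 peaks without Motif41 held it. When overlapping words were merged, the 51 peaks had 57 separate Motif41 sites, of which 26 (45.6%) were CAGCTG, 9 (15.8%) CAGATG or its complement CATCTG, 1 CATATG, and 21 (36.8%) held no E-box. Over all protein-coding peaks 50.5% of the sites were CAGCTG and 27.7% held no E-box. The sites lay at a median of 11.5 bp from the peak center, against 10.5 bp over all.

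The strongest peaks illustrate the difference between the motif and the E-box. Of the 11 solute carrier peaks with a score of at least 20, 10 carried Motif41, but 5 held CANNTG and 3 of them CAGCTG. Among the 911 protein-coding peaks at that score, 634 carried Motif41 and 543 (59.6%) held CANNTG. The number of solute carrier peaks at this level is too small to read a difference from it.

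Transmitter uptake carriers had peaks away from promoters, nearly all with Motif41. The highest score of any solute carrier gene belonged to Slc6a11, which encodes the GABA transporter GAT-3 of astrocytes. This peak scored 47.3 (rank 189 of 4215), lay in intergenic sequence of chromosome 6 at -36736 bp, and holds CAGCTG in the sequence shown first. A second peak of Slc6a11 lay in intron 5 of 13 at +42860 bp with a score of 6.71 and the same E-box, so the peaks flank the TSS at similar distances but differ widely in score.

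Slc1a3 encodes the glutamate transporter GLAST of astrocytes and radial glia. Its upstream peak at -27556 bp scored 28.4 (rank 537) and its peak in intron 3 of 9 at +28500 bp scored 9.53. Both hold CAGCTG and lie at similar distances on opposite sides of the TSS, but the upstream peak scored higher. Slc1a1, the glutamate transporter EAAT3 of neurons, had a peak at -76169 bp with a score of 14.8, whose word is CATATG, the only site of this form among the solute carrier peaks. Slc1a4, a transporter of serine and other neutral amino acids, had a promoter peak at -232 bp without Motif41 (15.3), the only promoter peak of the class, and a weak intergenic peak at -68301 bp with CAGCTG (4.04). Slc1a6, the glutamate transporter EAAT4 of Purkinje cells, had a peak in exon 9 of 10 that scored 8.99 and has CAGCTG in 2 separate sites.

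Other Slc6 genes had peaks without CAGCTG. Slc6a6, the taurine transporter, had peaks in its introns 5 and 2 at +46049 bp (17.4) and +35475 bp (5.84). Slc6a17, a carrier of neutral amino acids in synaptic vesicles, had a peak in intron 5 of 11 at +9041 bp (12.4). Of the 12 peaks of Slc1 and Slc6, 11 carried Motif41, 11 held CANNTG and 10 lay more than 10 kb from the TSS, in equal numbers upstream and downstream when all 12 are counted (6 upstream). Over all protein-coding peaks these shares were 58.2%, 50.2% and 40.6%. Motif41 was carried by 75.9% of all protein-coding peaks outside promoters, where 11 of these 12 peaks lay. The counts were not tested. Slc1a2, the main glutamate transporter of astrocytes, and Slc6a5 and Slc6a9, the glycine transporters, were the nearest genes of no peak.

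Slc25 genes showed the opposite arrangement, with 10 of 14 peaks in promoters and each peak at a different gene. All 10 promoter peaks lay between -569 and +20 bp of the TSS, 9 of them upstream. Among the other 58 solute carrier peaks 13 were in promoters. The strongest Slc25 peak, however, was not in a promoter. It belonged to Slc25a1, the mitochondrial citrate carrier that supplies citrate for fatty acid and cholesterol synthesis, scored 43.9 (rank 222) and lay at +6206 bp in intergenic sequence of chromosome 16 that the annotation marks as CpG. Its only word stands at the first base of the stretch shown and holds no E-box.

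The promoter peaks of Slc25a10, the dicarboxylate carrier (24.1, rank 763, -318 bp), and of Slc25a17, a carrier of peroxisomes rather than mitochondria that moves CoA and related nucleotides (23.5, rank 788, -118 bp), were the strongest of the family within a promoter. Both carried Motif41, with CATCTG in Slc25a10 and no E-box in Slc25a17. Slc25a34, a carrier of unknown substrate (8.99, -78 bp), and Slc25a18, a glutamate carrier of astrocyte mitochondria (7.77, -342 bp), each had CAGCTG. The peak of Slc25a11, the oxoglutarate carrier (9.53, +20 bp), was annotated to the promoter of Rnf167, from whose TSS, on the opposite strand, it lay at -216 bp, and its 2 Motif41 sites held no E-box.

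The other 5 promoter peaks of the family had no Motif41, and 4 of them are described here. Slc25a42, which imports CoA (11.7, -273 bp), and Slc25a38, a glycine carrier of heme synthesis (8.31, -51 bp), had the ETS-like words shown above, and the peak of Slc25a42 also holds a CANNTG that overlaps the end of its word. Slc25a30 (5.99, -10 bp) and Slc25a25, an exchanger of ATP-Mg and phosphate (4.67, -569 bp), had words of other motifs. The peak of Slc25a25 also overlapped an exon of Naif1, a neighboring gene. Outside promoters, Slc25a44, a carrier of branched-chain amino acids, had an intergenic peak at -2542 bp (17.4), Slc25a29, a carrier of basic amino acids, a peak in intron 1 of 3 (12.5, +3403 bp), and Slc25a47 a peak in its 3' UTR (3.25, +5232 bp). These 3 peaks all held CAGCTG.

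**Figure D3:**
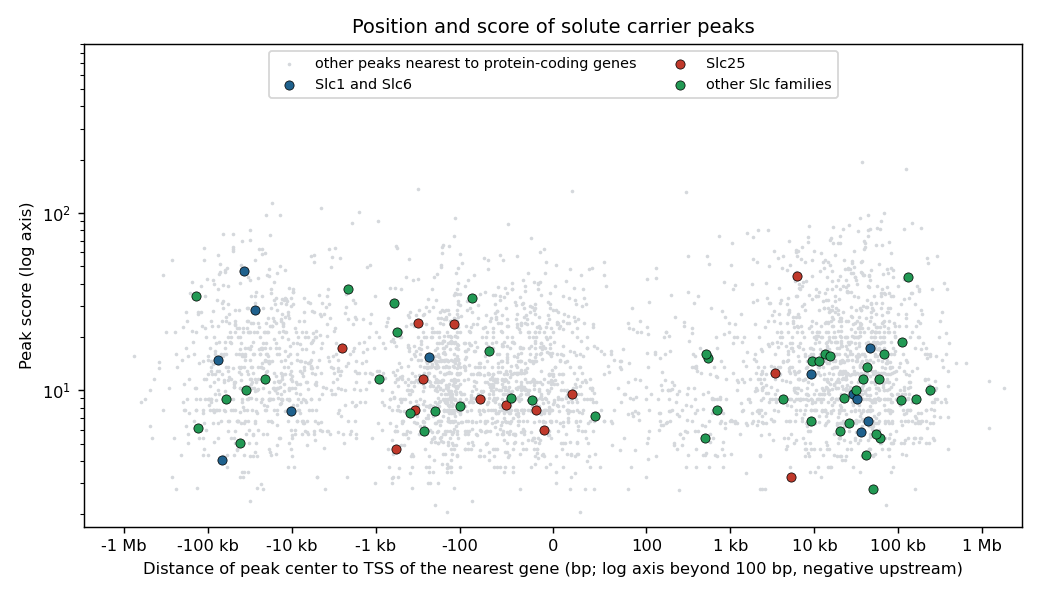
Signed distance of the peak center from the TSS of the nearest gene (bp, linear within 100 bp and logarithmic beyond) against peak score (log axis), for Slc1 and Slc6 (blue), Slc25 (red), other solute carrier families (green) and all other peaks nearest to protein-coding genes (grey). The red points gather just upstream of the TSS, while 10 of the 12 blue points lie more than 10 kb away on either side, up to the Slc6a11 peak with a score of 47.3.

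Among exchangers of sodium and calcium, Slc24a2 and Slc24a5 each had a strong peak far from the TSS, while the other distant peaks were weaker. Slc24a2 encodes the potassium-dependent sodium/calcium exchanger NCKX2. Its peak in intron 2 of 10, at +131613 bp on chromosome 4, scored 43.7 (rank 226) and holds CATCTG, and a weaker intergenic peak at -131840 bp scored 6.17 with a Motif41 word that lacks an E-box. Slc24a5, the exchanger NCKX5 of pigment cells, was nearest to an intergenic peak at -137316 bp with CAGCTG and a score of 34.0 (rank 390). Slc8a1, the sodium/calcium exchanger NCX1, had a peak in intron 2 of 11 at +235475 bp, the largest distance among solute carrier peaks (10.0), and Slc9a9, the sodium/proton exchanger NHE9 of endosomes, a peak in intron 1 of 15 at +538 bp (15.3), both with CAGCTG. All 5 peaks of this class lay outside promoters and carried Motif41, as did 75.9% of all protein-coding peaks outside promoters.

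Carriers of anions had 6 peaks. That of Slc26a1, a sulfate transporter (37.3, rank 320, -2158 bp), lay in intron 3 of 14 of Idua, the gene of a lysosomal enzyme, and carried Motif41 without an E-box. Slc26a6, an anion exchanger, had a peak in its 5' UTR (16.0, +518 bp), also without an E-box. Slc4a3, the bicarbonate/chloride exchanger AE3, had a peak at its termination site (16.0, +13399 bp) and an intergenic one (8.82, +107699 bp), both with CAGCTG. Slc4a5, a sodium bicarbonate cotransporter, had an intronic peak without Motif41 (10.0, +31021 bp), and Slc4a2, the exchanger AE2, a peak in intron 2 of 22 (7.76, +699 bp). No Slc12 gene, of the 9 annotated cation-chloride cotransporters and their relatives, had a peak.

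Sugar carriers had 9 peaks, of moderate or low score. Slc2a10, the glucose transporter GLUT10, had a peak in intron 1 of 4 with CAGCTG (14.7, +9283 bp) and an intergenic one (6.57, +25473 bp). Slc2a8 (GLUT8) and Slc2a6 (GLUT6), carriers of intracellular membranes, had promoter peaks without Motif41 (8.22 at -100 bp and 9.11 at -45 bp), and a second peak nearest to Slc2a8 (5.06, -41923 bp) lay in an intron of Garnl3. Slc5a11, a sodium-coupled inositol transporter expressed in OLs, had a promoter peak with CAGCTG (7.41, -396 bp). Slc45a4 had an intergenic peak at -20984 bp (11.5). Both peaks of Slc45a1, a proton-coupled sugar transporter, lay in introns of Rere, at +111518 bp (18.7) and +163877 bp (8.90), and neither carried Motif41. Slc2a1, the glucose transporter of the blood-brain barrier and of glia, was the nearest gene of no peak.

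All 5 peaks of the Slc35 family, mostly carriers of the Golgi and endoplasmic reticulum, lay in promoters, at 4 of 27 genes. Of all protein-coding peaks, 40.2% lay in promoters, and the difference was not tested. Slc35c2, a carrier linked to the fucosylation of Notch, had peaks at -616 bp (31.3, rank 451) and -924 bp (11.6), which lay 308 bp apart. The stronger holds no E-box and the weaker holds CAGCTG, and both overlapped an exon of Elmo2, the neighboring gene. Slc35f5 had a peak at -563 bp without Motif41 (21.4, rank 896). Slc35b4, a carrier of UDP-sugars, and Slc35b1, of the endoplasmic reticulum, had weaker peaks at +45 bp (7.21) and -265 bp (5.89). Among carriers of nucleosides, Slc28a1 had a peak in intron 8 of 17 without Motif41 (5.89), and the peak nearest to Slc29a3, a lysosomal carrier, lay in an intron of Unc5b (10.0).

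Amino acid carriers of the Slc38 family, which move glutamine, had low peaks. Slc38a1 (SNAT1) had peaks in its intron 4 at +37452 bp (11.6, with CAGCTG) and +41420 bp (4.30, without Motif41), Slc38a2 (SNAT2) a peak in intron 1 of 15 at +495 bp (5.41, without Motif41), and Slc38a6 an intronic peak (5.67, +54105 bp). Slc43a2, a transporter of large neutral amino acids, had a promoter peak at -69 bp with CCAAT-like words and no Motif41 (16.7). None of the 16 Slc7 genes, which include the light chains of the heteromeric amino acid exchangers, was the nearest gene of a peak, although a peak lay within the body or upstream 1000 bp of Slc7a14.

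The remaining peaks belonged to families with few members in the list. The promoter peak of Slc15a4, a lysosomal transporter of histidine and peptides, was among the strongest (33.1, rank 415, -87 bp), with a Motif41 word that holds no E-box, while the peak nearest to Slc15a1, the intestinal peptide transporter, lay in intron 46 of 53 of Dock9 (8.90, -61767 bp). Slc44a3, of the choline transporter-like family, had a peak in intron 11 of 14 with CAGCTG (13.6, +42752 bp). Slc19a2, the thiamine transporter, had a promoter peak (7.65, -196 bp), Slc23a3 a peak at its termination site (6.75), and Slc37a3 an intergenic peak (11.6, +58470 bp), all without Motif41. Slc39a9, a zinc transporter, was the single metal carrier that was the nearest gene of a peak (8.82, -23 bp). A peak inside the gene or just upstream was also found at Slc39a6 and Slc39a11. The peak of Slc39a9 carried Motif22 and was annotated to the promoter of Erh, from whose TSS, on the opposite strand, it lay at -81 bp.

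Of the organic ion carriers, Slc51a and Slc51b encode the subunits of 1 heteromeric transporter of bile acids and steroids and lie on different chromosomes. Both were the nearest gene of a peak with CAGCTG (15.7 and 14.7), but each peak lay in the 3' UTR of a neighboring gene, Pcyt1a and Rasl12. Slc22a23, an orphan carrier, had a peak in intron 3 of 10 without Motif41 (16.0, +66628 bp). The peaks nearest to Slc22a12, the urate transporter of the kidney, lay in introns of Nrxn2, the gene of the synaptic adhesion protein neurexin 2, with scores of 5.41 and 2.76. Slc13a3 had a peak in its first intron (9.04, +22194 bp), and Slc16a7, the monocarboxylate transporter MCT2, a peak in intron 1 of 6 (8.90, +4205 bp), both with an E-box that is not CAGCTG.

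In 12 of the 72 peaks (16.7%, 95% confidence interval 8.92 to 27.3%, against 11.8% of all protein-coding peaks) the annotated transcript belonged to another gene than the nearest one, and 10 other genes were involved. They are Idua, Rere, Pcyt1a, Rasl12, Unc5b, Rnf167, Dock9, Erh, Nrxn2 and Garnl3. For 9 of the 60 genes every peak was of this kind, and among these Slc25a11 and Slc39a9 had their peak at their own TSS. A TSS of another gene within 1 kb of the peak center was found for 3 peaks (4.17%, 95% confidence interval 0.868 to 11.7%, against 9.85% of all). Of the introns with a peak, 21 belonged to the solute carrier gene itself and 8 to another gene.

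Where a gene had a pair of peaks, the stronger of them was the nearer to the TSS in 10 of 12 genes (83.3%, 95% confidence interval 51.6 to 97.9%), against 48.0% of the 377 protein-coding genes with a pair of peaks of unequal score and distance. This comparison was added after the values were seen and was not tested, and in Slc24a2 and Slc1a3 the distances of the pair were close to equal. The peaks of a pair lay between 308 bp (Slc35c2) and 266030 bp (Slc24a2) apart. Both peaks carried Motif41 in 8 genes and neither did in Slc45a1. The exceptions to the order by distance are Slc6a6 and Slc22a12, whose stronger peaks lie farther out, at +46049 and +59922 bp.

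Some of the peaks lay close to each other at solute carrier genes of the same region. With peaks joined when less than 250 kb apart, a limit chosen after the values were seen, peaks of more than 1 solute carrier gene were found together, and 3 such neighborhoods are described. On chromosome 2, 5 peaks at Slc35c2, Slc13a3 and Slc2a10 lay within 241 kb, all with Motif41 and with scores from 6.57 to 31.3. Slc38a1 and Slc38a2 on chromosome 15 (98.7 kb) and Slc25a29 and Slc25a47 on chromosome 12 (23.9 kb) formed the others. The genes of both of these are pairs from 1 family.

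**Figure D4:**
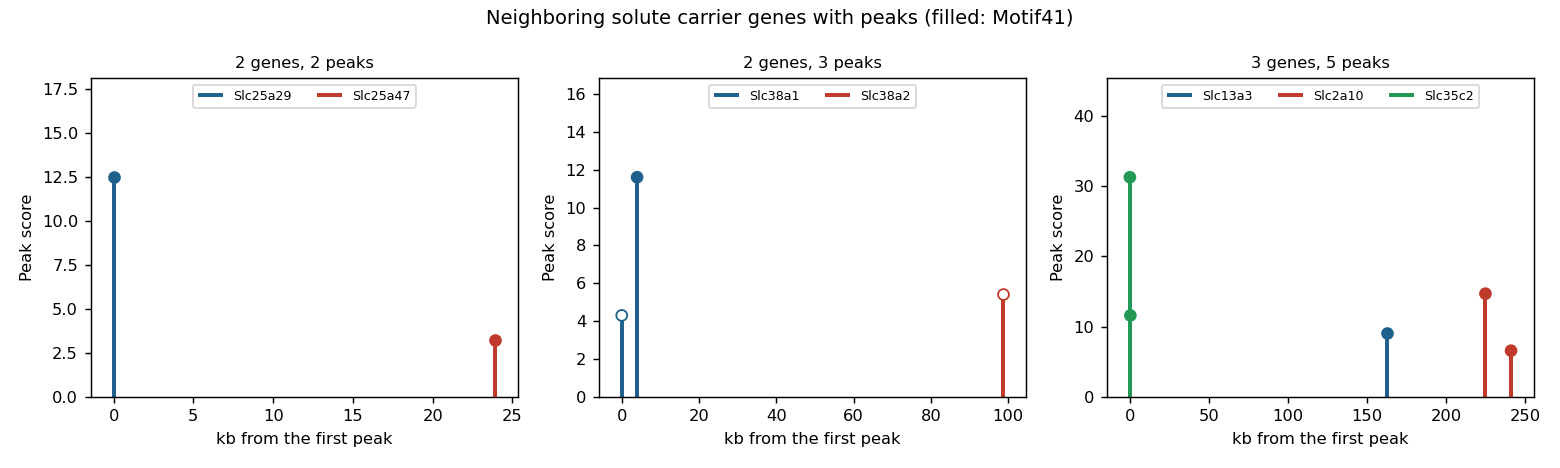
Peak score against position (kb from the first peak) in 3 neighborhoods with peaks at more than 1 solute carrier gene, with filled heads for Motif41. The first Slc35c2 peak (31.3) stands above the others of its neighborhood, and open heads occur only at Slc38a1 and Slc38a2.

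Solute carrier genes used as markers of cell types were then examined. Among 9 such genes of astrocytes, 3 had a peak (Slc6a11, Slc1a3 and Slc25a18), and among 5 of OLs 2 had a peak (Slc24a2 and Slc5a11), while Slc44a1, Slc45a3 and Slc12a2 did not. No peak was found at the 7 genes of neurons, among them the vesicular transporter genes Slc17a6, Slc17a7, Slc18a3 and Slc32a1, nor at the 6 of endothelial cells, the 2 of microglia and macrophages, and the 5 of meninges and mural cells. The neuron list leaves out Slc1a1, Slc1a6 and Slc6a17, carriers of neurons that had peaks. Its count therefore depends on the genes listed and is not set against those of astrocytes or OLs. The OL count depends in the same way on the listing of Slc24a2, whose expression by cell type was not examined. These lists are short, their counts stand beside 14.1% over all protein-coding genes, and they were not tested. A peak in whole cord does not show in which cells Olig2 was bound.

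The promoters of the genes with promoter peaks were searched for words on both strands in the RefSeq promoter windows, 300 bases around the start (GRCm38.p6). A sequence was available for 21 of the 22 genes and for 290 of the 375 solute carrier genes. CCAAT (or ATTGG) was found in 14 of 21 (66.7%), against 32.7% of the 269 other solute carrier promoters and 39.0% of 17492 promoters of protein-coding genes. CCGGAAG occurred in 5 of 21 (23.8%), against 10.4% and 11.9%, and CAGCTG in 4 of 21 (19.0%), against 17.5% and 15.1%. CANNTG, which includes CAGCTG, occurred in 12 of 21 (57.1%), against 75.8% and 68.8%. The search describes letters in these windows, which need not contain the peak itself. These genes were chosen for their promoter peaks, and some of those peaks carry deposited words of Motif54 or Motif22. The counts of CCAAT and CCGGAAG are therefore not independent of the peaks. Promoters of other protein-coding genes with a peak were not counted apart, and the differences were not tested.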

How the data were processed

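Peaks were called by the authors with MACS2 after alignment with BWA, and annotated with HOMER (mm10), on aggregated experiments. The Input Control was also given to MACS2. The deposited peak score is a signal whose scale is not named. The deposited GC content is a fraction of the 51 bp and matched GRCm38.p6 for 4212 peaks on nuclear chromosomes; 7174 of 7174 motif words were found at their place. The headers of gene type and gene description are exchanged in the file and were read by content. A second sheet repeats 5 peaks and was not used. The paper reports an approximate total of uniquely mapped reads for the aggregated experiments, but the reads behind each single peak are unknown.

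Shares were counted beside those of 3736 protein-coding peaks, and nothing was tested, because peaks of 1 list are not replicates. Members and gene lists were chosen with earlier results of these data known. Any solute carrier gene with a peak could be named, with full values for the 12 highest peaks, genes with a pair of peaks, families with 4 or more peaks and marker genes. Some members are counted but not reported here by name. Annotated transcripts were matched to RefSeq for 3188 of 3210 accessions. On simulated data the intervals covered 96.5% of 2000 shares and the search found 200 of 200 planted words. Alternatives changed the score minimum, TSS window, motif definition, counting unit, members and gene assignment. Python 3.11.15, pandas 2.3.3, scipy 1.17.1 and pysam 0.24.0 were used.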

Additional observations from a re-analysis of the deposited data

How the results depend on the processing

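Of 27 alternatives, 20 left the share, median or count within its interval or within 1.5 times. The share of peaks with Motif41 rose from 70.8% to 90.9% for scores of at least 20, and was 54.2% and 34.7% when CANNTG or CAGCTG in the 51 bp replaced the deposited hit. The share in promoters moved from 31.9% to 45.5% for scores of at least 20, with 11 peaks left. The number of solute carrier genes with a peak was 34 at a score of at least 10, 11 at 20 and 26 when peaks within 1000 bp of the TSS counted, where 8.89%, 3.84% and 7.32% of all protein-coding genes had one. With peaks inside the gene or up to 1000 bp upstream of it, 59 genes had a peak (13.7% of all), of which 46 were the same genes, 13 were added and 14 were lost. Leaving out peaks in transcripts of other genes, chosen after seeing the data, left 51 genes and 70.0% with Motif41. The depth behind each peak is unknown, so weak peaks cannot be weighed by their reads. No paired analysis was possible because the list is pooled and has no replicates.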

Other observations

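Genes that are now counted as solute carriers stand in the list under older names and were not among the members. A peak in an intron of Dirc2, now Slc49a4, scored 11.2 at +39967 bp and carried Motif41, and a peak nearest to Pqlc2, now Slc66a1, scored 14.5 at +21172 bp without it. An intergenic peak assigned to Kcnk1 (4.26, with Motif41) lay closer to a curated start of Slc35f3 (65794 bp) than to that of Kcnk1 (78229 bp). The Slco genes, carriers of organic anions left out by the naming rule, had intronic peaks at Slco3a1 (10.3) and Slco2b1 (4.67).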
